A study of Rattus norvegicus with 12 samples.

Results

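The semaphorins, plexins, neuropilins, Eph receptors and ephrins of the rat are described here in 2 layers of the spinal dorsal horn, with and without activation of oxytocin (OT) neurons. Their members were found by gene symbol, as every row of the deposited count tables named as a class 3 to 7 semaphorin (Sema3a to Sema7a), a plexin (Plxn), Nrp1, Nrp2, an Eph receptor (Epha, Ephb) or an ephrin (Efna, Efnb). This gave 53 of 32623 genes, with 20 semaphorins, 11 semaphorin receptors, 14 Eph receptors and 8 ephrins, all annotated as protein coding. All 12 libraries came from 8-week-old OT-hM3Dq-mCherry transgenic rats, which carry a designed human muscarinic receptor (hM3Dq) fused to mCherry under the OT promoter. The rats were given Saline or CNO, the ligand of hM3Dq, at 1 mg per kg s.c., and 2 h later laminae I–II (the superficial layer) and laminae III–VI (the deep layer) of the L5 dorsal horn were laser-microdissected. Each layer and treatment has 3 libraries (I–II Saline, I–II CNO, III–VI Saline, III–VI CNO), and per the study's methods both layers came from 3 rats per treatment. The controls carry the transgene too, and CNO in wild-type rats was not analysed here. OT neurons lie in the hypothalamus, outside the tissue sequenced here.

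Semaphorins are secreted, membrane-spanning or lipid-anchored ligands that steer growing axons, most often by repulsion, and in the adult tune synapses, vessels and immune cells. Plexins are their signalling receptors, and the secreted class 3 semaphorins mostly need a neuropilin as a co-receptor. Eph receptors are tyrosine kinases that bind ephrins on a neighbouring cell, with A-type ephrins held by a lipid anchor and B-type ephrins spanning the membrane, and signals run into both cells. In the developing spinal cord these systems sort sensory afferents by lamina and keep axons from crossing the midline.

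Total counts lay between 5245952 and 7889953 per library, and the 53 genes held 0.306% to 0.357% of all counts in laminae I–II and 0.213% to 0.221% in laminae III–VI. After the filter on low counts 51 of the 53 genes could be tested. Efna4, an A-type ephrin, had 0 to 5 counts per library, and Epha1, an EphA receptor, had 1 to 10, so neither was tested. The ratio of summed superficial to summed deep marker genes was 0.382 to 0.662 in the 6 libraries of laminae I–II and 0.0458 to 0.0646 in the 6 of laminae III–VI, so all 12 libraries lay on the side of their label. Of 15 tested superficial markers 13 were higher in laminae I–II and 1 in the deep layer, where all 12 deep markers were higher. The marker lists were chosen with earlier results of these data known, and most of the deep sum came from the neurofilament genes Nefm and Nefh. These values are therefore no independent check of the labels. Levels below are CPM, the counts of a gene relative to the library's total, after TMM scaling, which corrects library size for composition. They are not divided by transcript length and are compared between samples of 1 gene, never between genes.

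The layers differed in most of these genes. Of 51 tested, 30 had higher levels in laminae I–II and 13 in the deep laminae III–VI, while 8 did not pass edgeR's quasi-likelihood test at a Benjamini-Hochberg adjusted p under 0.05, fitted over the 12 libraries together with each rat as a block. Here and in the figures a rat means the 2 libraries that share a treatment and replicate number, a pairing that the labels do not state. The 43 genes past the threshold are 84.3% of those tested, against 62.5% of all 13745 genes. By direction, 58.8% of the guidance genes were higher in laminae I–II against 31.3% of all genes, and 25.5% were higher in laminae III–VI against 31.2%. The median log2 difference (laminae I–II minus laminae III–VI) was 0.35 over the 51 genes and 0.02 over all genes, and the median absolute difference was 0.50 against 0.28. More than 2-fold differences past the threshold were found in 12 guidance genes (23.5%, against 8.88% of all genes). In 38 of 51 (74.5%, against 53% of all genes) all 6 rats had the same direction, and in 30 (58.8%, against 35.2%) the 6 superficial and the 6 deep libraries did not overlap. The deep side depended on the scaling. With library totals in place of TMM factors, which moved the median of all genes from 0.02 to 0.19, 32 genes were higher in laminae I–II and 6 in the deep layer (6592 and 2605 over all genes, against 4300 and 4285 with TMM factors). In these bulk samples fewer cells of a type and less RNA per cell cannot be told apart.

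**Figure D1:**
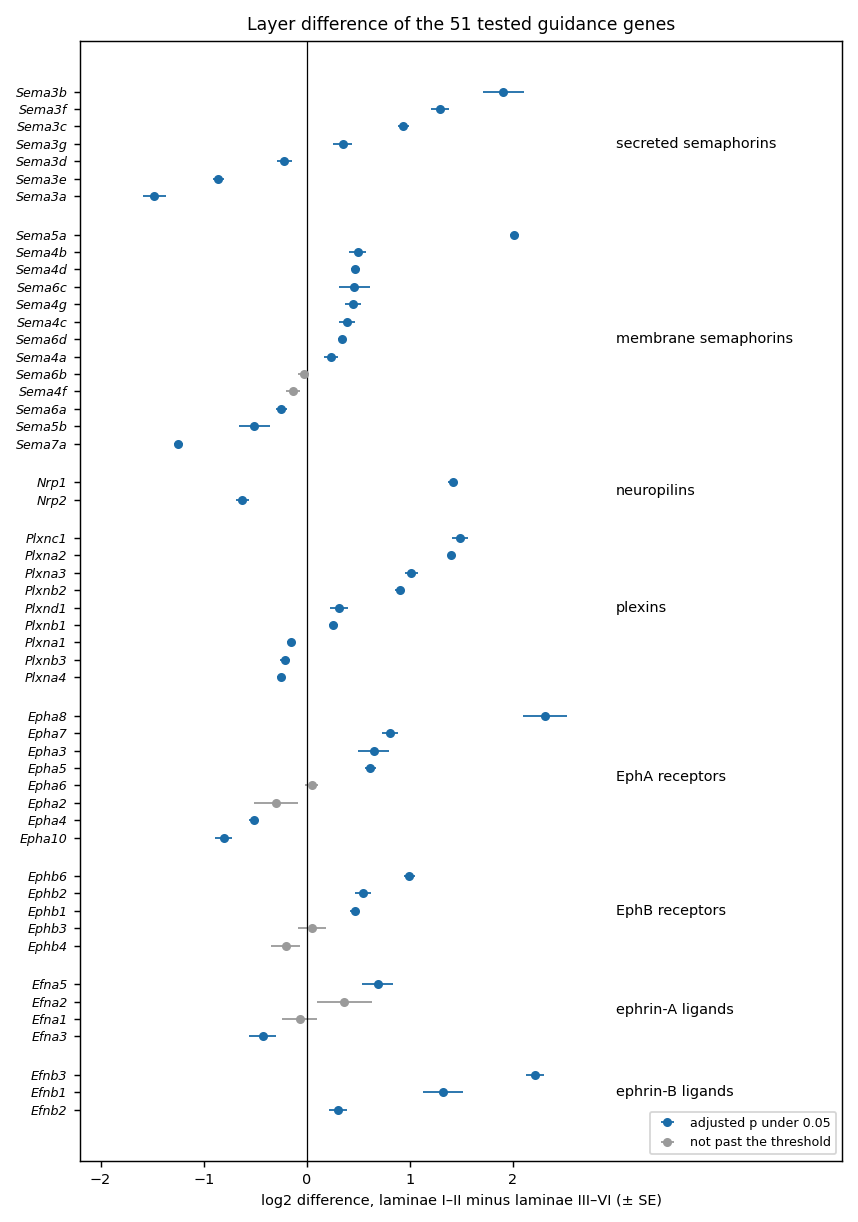
Log2 difference between laminae I–II and laminae III–VI (horizontal axis, edgeR estimate ± SE, 12 libraries from 6 rats) for the 51 tested guidance genes, grouped by role, with genes past the adjusted threshold in blue and the others in grey. Points right of the line are higher in laminae I–II (30 genes past the threshold) and points left of it are higher in laminae III–VI (13 genes), with Epha8, Efnb3 and Sema5a farthest to the right and Sema3a and Sema7a farthest to the left.

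Promoters are printed for 5 genes that the results turn on, the semaphorin receptors Plxna2 and Nrp1 (higher in laminae I–II), Nrp2 and the ligand Sema7a (higher in laminae III–VI), and Sema3g (higher with CNO in laminae I–II). RefSeq promoters (build GRCr8, 250 bases before to 50 bases after the start of the gene) were matched by symbol for 43 of the 53 genes. The 10 others were Efnb3, Epha4, Plxna1, Plxna4, Sema3a, Sema3b, Sema3f, Sema4d, Sema4g and Sema5a. Sequences run 5′ to 3′ on the strand of the gene, and capitals mark the GC box (GGGCGG) and the CCAAT box (CCAAT), searched on both strands. Plxna2 is at chr13:108691280-108691579 (+ strand), Nrp1 at chr19:73256307-73256606 (+ strand), Nrp2 at chr9:71617004-71617303 (+ strand), Sema7a at chr8:67244068-67244367 (+ strand) and Sema3g at chr16:6419775-6420074 (+ strand).
Plxna2: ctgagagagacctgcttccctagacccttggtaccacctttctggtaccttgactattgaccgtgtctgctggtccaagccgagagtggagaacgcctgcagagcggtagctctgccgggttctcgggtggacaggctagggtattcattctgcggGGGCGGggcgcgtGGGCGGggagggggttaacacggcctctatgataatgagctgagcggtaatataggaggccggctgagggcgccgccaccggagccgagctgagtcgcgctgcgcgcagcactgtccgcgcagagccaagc
Nrp1: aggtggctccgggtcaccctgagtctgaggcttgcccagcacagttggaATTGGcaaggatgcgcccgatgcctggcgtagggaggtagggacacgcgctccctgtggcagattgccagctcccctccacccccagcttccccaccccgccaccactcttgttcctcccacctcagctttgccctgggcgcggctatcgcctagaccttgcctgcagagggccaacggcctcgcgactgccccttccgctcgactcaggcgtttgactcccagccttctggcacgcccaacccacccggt
Nrp2: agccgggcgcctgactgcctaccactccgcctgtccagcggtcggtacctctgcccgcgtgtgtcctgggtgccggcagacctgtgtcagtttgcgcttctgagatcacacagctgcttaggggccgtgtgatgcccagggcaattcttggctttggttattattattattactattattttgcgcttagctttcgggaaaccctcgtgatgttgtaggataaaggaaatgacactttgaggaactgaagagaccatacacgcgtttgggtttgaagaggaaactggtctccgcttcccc
Sema7a: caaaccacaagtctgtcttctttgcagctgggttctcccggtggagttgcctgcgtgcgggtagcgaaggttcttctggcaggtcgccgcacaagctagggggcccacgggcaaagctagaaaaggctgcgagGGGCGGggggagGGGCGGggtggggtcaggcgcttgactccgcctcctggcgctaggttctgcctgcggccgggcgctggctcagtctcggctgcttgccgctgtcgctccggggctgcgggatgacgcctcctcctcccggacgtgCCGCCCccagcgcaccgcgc
Sema3g: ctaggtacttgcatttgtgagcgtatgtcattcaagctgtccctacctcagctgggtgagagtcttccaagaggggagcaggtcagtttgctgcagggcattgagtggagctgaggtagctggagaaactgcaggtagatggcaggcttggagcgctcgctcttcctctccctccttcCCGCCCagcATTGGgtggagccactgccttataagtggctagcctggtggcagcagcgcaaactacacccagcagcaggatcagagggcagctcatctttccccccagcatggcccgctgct

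The windows of Plxna2 and Sema7a held 2 and 3 GC boxes. That of Nrp1 held 1 CCAAT box, that of Nrp2 neither motif, and that of Sema3g 1 of each. Over the 43 guidance promoters 53.5% held a GC box, against 33.1% of all 33469 promoters in the table. A CCAAT box was in 37.2% of the guidance promoters and 37.5% of all. The TATA box (TATAAA) was in 0 of 43, against 14.2% of all, and the E-box (CANNTG) in 62.8% against 72.1%. The sets are unlike, since the 43 are protein coding genes with 1 promoter per symbol. The 33469 were neither filtered by gene type nor reduced to 1 per symbol. Matches of different motifs can share bases, and a match is only a match of letters in this window.

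Of the 7 secreted (class 3) semaphorins, 4 were higher in laminae I–II (Sema3b, Sema3f, Sema3c, Sema3g) and 3 were higher in laminae III–VI (Sema3a, Sema3e, Sema3d). Sema3a, the classic axon repellent that acts through Nrp1 and A-type plexins, had 4.65 CPM at the lowest, 6.62 CPM at the median and 10.01 CPM at the highest in laminae I–II, and 14.4, 19.8 and 22.1 CPM in laminae III–VI. The 6 deep libraries lay above all superficial ones, and the log2 difference was -1.48 (SE 0.11, edgeR adjusted p = 2.05e-11). Sema3e, which binds Plxnd1 without a neuropilin, also lay higher in every deep library. Its levels were 31.1, 33.1 and 38.3 CPM (lowest, median, highest) in laminae I–II and 55.1, 61.0 and 73.0 CPM in the deep layer (log2 difference -0.86, SE 0.06, edgeR adjusted p = 7.71e-13). Sema3b went the other way, with 2.47, 6.79 and 9.30 CPM in laminae I–II against 1.26, 1.67 and 2.05 CPM in the deep layer (log2 difference 1.91, SE 0.20, edgeR adjusted p = 8.79e-09). Its lowest superficial library, from a CNO rat, lay just above the highest deep one, and Sema3b had only 8 to 53 counts per library. Sema3f, a ligand of Nrp2, and Sema3c were higher in laminae I–II in all 6 rats, by 2.45-fold and 1.91-fold. Sema3g was 1.27-fold higher and Sema3d 1.16-fold lower in laminae I–II, both with overlapping libraries and with the average direction in 4 of 6 rats.

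Sema3g lost its layer call in the Saline rats alone, and Sema3d turned there to a log2 difference of 0.02. The call of Sema3d also ended with library totals, with DESeq2 and without Saline replicate 1. The genes of other cell types also differed between the layers, and their part in these differences was not tested. Of 13 tested fibroblast and meningeal markers 7 were higher in laminae I–II and 1 in the deep layer (median log2 difference 0.66). Their sum was 284 to 704 CPM in I–II Saline against 239 to 294 CPM in III–VI Saline. With CNO it was not higher in laminae I–II, at 258 to 273 CPM against 266 to 305 CPM. Of 9 microglial markers 9 were higher in laminae I–II (median 0.67). Of 10 endothelial and mural markers 6 were higher in the deep layer and 0 in the superficial one, and of 12 oligodendrocyte markers 9 were higher in the deep layer and 1 in the superficial one. Of 7 Schwann cell markers 4 were higher in the superficial and 1 in the deep layer. The Schwann cell sum was 669 to 1016 CPM in I–II Saline against 537 to 597 CPM in III–VI Saline. With CNO the layers overlapped, at 474 to 507 CPM against 477 to 574 CPM. Of 3 oligodendrocyte precursor markers 1 was higher in the superficial layer. Astrocyte markers were split 4 and 4 of 10, and of 10 general neuronal markers 7 were higher in the deep and 1 in the superficial layer. Defining markers at or near 0 counts were the endothelial Cldn5 (0 in all 12 libraries), the oligodendrocyte precursor genes Neu4 (0) and Gpr17 (0 to 2), and the Schwann cell genes Cldn19 (0 to 9) and Egfl8 (2 to 8).

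Among 13 membrane semaphorins (classes 4 to 7) 8 were higher in laminae I–II and 3 in the deep layer (Sema7a, Sema5b, Sema6a), and Sema4f and Sema6b did not pass. Sema5a, a transmembrane semaphorin with thrombospondin repeats, had the smallest p of the 51 genes. Its levels were 363, 392.4 and 452 CPM (lowest, median, highest) in laminae I–II and 88.7, 101 and 108 CPM in laminae III–VI. The layers were far apart in all 6 rats, with a 4.04-fold difference (log2 2.02, SE 0.04, edgeR adjusted p = 1.42e-22). Sema7a, which is lipid-anchored and signals through Plxnc1 and integrins, was 2.37-fold higher in laminae III–VI. It had 51.6, 58.9 and 67.8 CPM in laminae I–II and 109, 148 and 157 CPM in the deep layer (log2 difference -1.25, SE 0.05, edgeR adjusted p = 7.4e-18). The lowest deep library, III–VI Saline 1, was well above the highest superficial one. Sema5b had 4.11, 5.36 and 7.73 CPM in laminae I–II and 6.63, 8.16 and 9.07 CPM in the deep layer (log2 difference -0.51, SE 0.15, edgeR adjusted p = 0.00483), with overlapping layers, and this call ended with library totals, with DESeq2 and in the Saline rats alone. That of Sema6a ended with library totals (edgeR adjusted p = 0.249). The other members that were higher in laminae I–II, Sema4a, Sema4b, Sema4c, Sema4d (the ligand of Plxnb1), Sema4g, Sema6c and Sema6d, were so by 1.18-fold to 1.41-fold. The call of Sema6c ended with DESeq2 (adjusted p = 0.114), in the Saline or the CNO rats alone and without Saline replicate 2, and that of Sema4a in the Saline rats alone and without CNO replicate 2.

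The neuropilins went in opposite directions. Nrp1, the co-receptor of Sema3a and of vascular endothelial growth factor, had 115, 119 and 123 CPM (lowest, median, highest) in laminae I–II and 39.6, 44.9 and 48.2 CPM in laminae III–VI. Its 6 superficial libraries lay within a narrow range, 2.67-fold above the deep ones (log2 difference 1.42, SE 0.05, edgeR adjusted p = 4.86e-19). Nrp2, the co-receptor of Sema3f, had 24.3, 31.6 and 37.7 CPM in laminae I–II and 39.7, 49.3 and 56.4 CPM in the deep layer (log2 difference -0.63, SE 0.06, edgeR adjusted p = 5.07e-09). Its layers did not overlap either. The ratio of Nrp1 to Nrp2 counts within a library, which no scaling of libraries can alter, was 3.18 to 4.73 (median 3.80) in laminae I–II and 0.703 to 1.16 (median 0.940) in laminae III–VI. This ratio and the ratios given below were chosen after the levels had been seen and are given without a test. Each puts a gene higher in laminae I–II over a gene higher in laminae III–VI, so its direction followed from the choice.

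**Figure D2:**
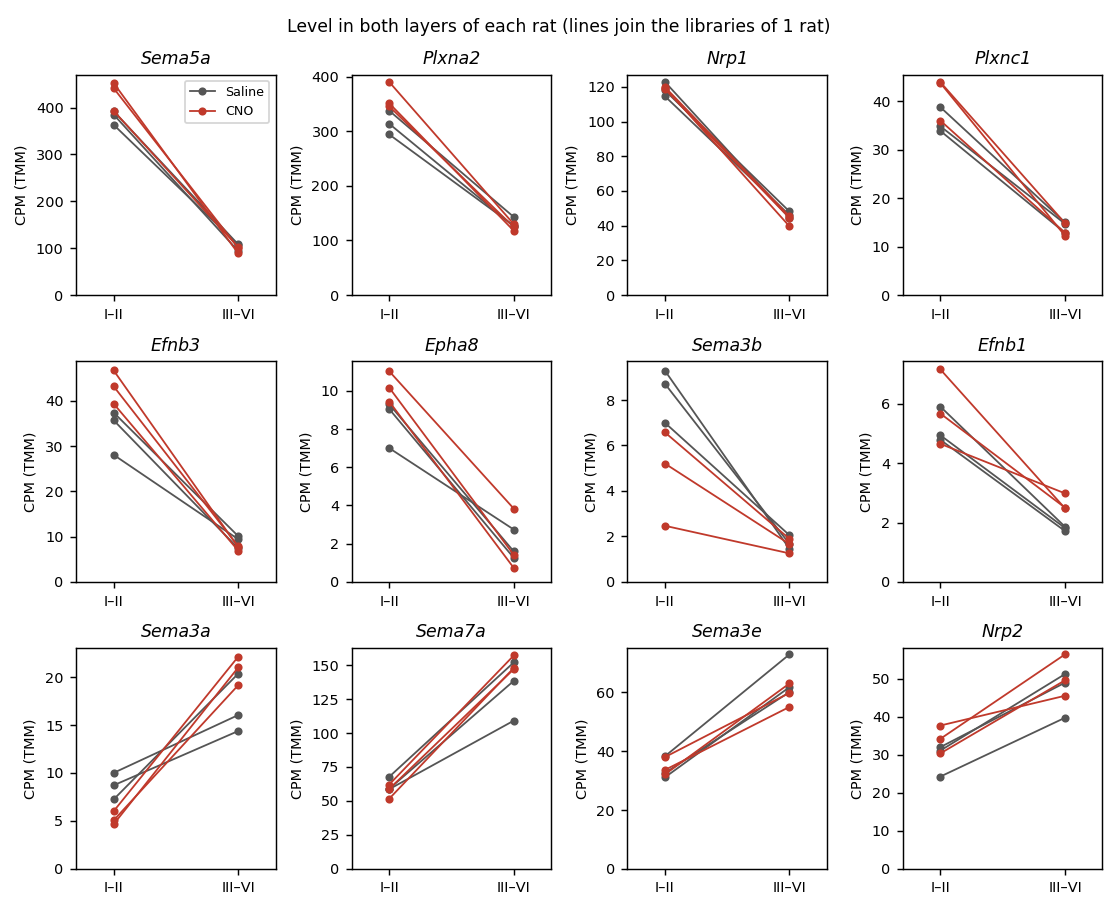
CPM (TMM-scaled, vertical axes starting at 0) of 12 guidance genes in laminae I–II and laminae III–VI, with lines joining the 2 libraries of each rat, grey for Saline and red for CNO. The upper 8 genes fall from laminae I–II to laminae III–VI in all 6 rats and the lower 4 (Sema3a, Sema7a, Sema3e, Nrp2) rise in all 6.

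All 9 plexins differed between the layers, 6 higher in laminae I–II (Plxnc1, Plxna2, Plxna3, Plxnb2, Plxnd1, Plxnb1) and 3 higher in laminae III–VI (Plxna4, Plxnb3, Plxna1). Plxna2, an A-type plexin that serves both class 3 and class 6 semaphorins, had 294, 342 and 391 CPM (lowest, median, highest) in laminae I–II and 118, 127 and 143 CPM in laminae III–VI. The difference was 2.64-fold and present in all 6 rats (log2 1.40, SE 0.03, edgeR adjusted p = 1.07e-21). Plxnc1, the receptor of Sema7a, was higher in the superficial layer while its ligand was higher in the deep one. It had 33.9, 37.4 and 44.0 CPM in laminae I–II and 12.2, 13.8 and 15.0 CPM in the deep layer (log2 difference 1.49, SE 0.07, edgeR adjusted p = 4.03e-15). Ligand and receptor were also on opposite sides for Sema3e and Plxnd1 (1.25-fold higher in laminae I–II) and for Sema5a and Plxnb3 (1.16-fold higher in laminae III–VI). Sema4d and its receptor Plxnb1 were on the same side, both higher in laminae I–II. Whether opposite sides were more common than the same side over all such pairs was not tested. Plxna3 and Plxnb2 were 2.02-fold and 1.87-fold higher in laminae I–II. The 3 deep plexins differed by only 1.11-fold to 1.19-fold. With library totals Plxna4 and Plxnb3 no longer passed and Plxna1 turned to 0.02, and Plxna1 did not pass in the Saline rats alone. The call of Plxnd1 ended with DESeq2 (adjusted p = 0.0628) and in the CNO rats alone (edgeR adjusted p = 0.217). The ratio of Plxna2 to Plxna4 counts was 2.56 to 2.83 (median 2.77) in laminae I–II and 0.750 to 1.03 (median 0.872) in laminae III–VI. For the ligands Sema3f and Sema3e it was 0.687 to 0.995 (median 0.845) and 0.154 to 0.217 (median 0.192).

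**Figure D3:**
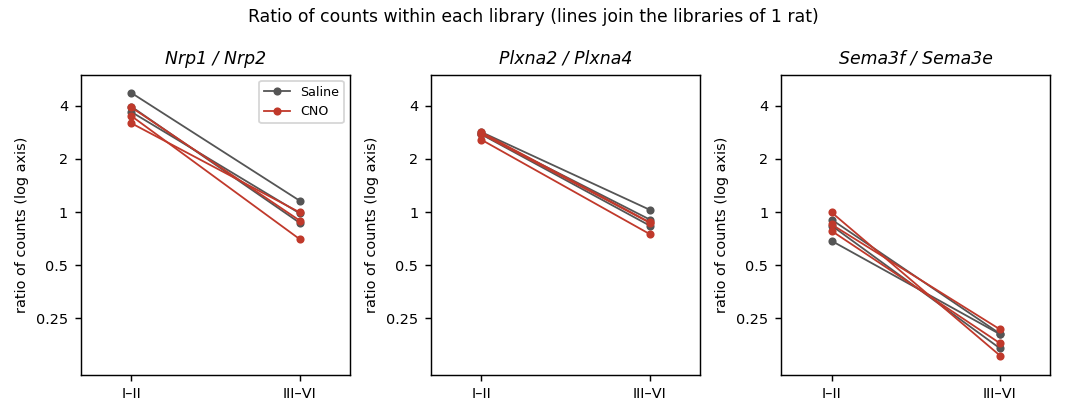
Ratio of the counts of 2 guidance genes within each library (vertical axis, log scale), with lines joining the 2 libraries of each rat, grey for Saline and red for CNO. In all 6 rats the ratios Nrp1 to Nrp2, Plxna2 to Plxna4 and Sema3f to Sema3e were higher in laminae I–II than in laminae III–VI, and the layers do not overlap in any of the 3. The pairs were chosen after the levels had been seen, with the gene higher in laminae I–II first, so the direction followed from the choice.

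Of 8 tested EphA receptors 4 were higher in laminae I–II (Epha8, Epha7, Epha3, Epha5), 2 were higher in laminae III–VI (Epha10, Epha4), and Epha2 and Epha6 did not pass. Epha8 had the largest layer difference of the 51 genes but few reads, 5 to 72 counts per library. It had 7.004, 9.37 and 11.03 CPM (lowest, median, highest) in laminae I–II and 0.729, 1.502 and 3.83 CPM in laminae III–VI, without overlap (log2 difference 2.31, SE 0.22, edgeR adjusted p = 8.5e-10). Epha4, which binds both ephrin types and in mouse guides spinal axons at the midline, was higher in every deep library. It had 74.1, 91.3 and 104 CPM in laminae I–II and 110.2, 131 and 141 CPM in the deep layer (log2 difference -0.52, SE 0.04, edgeR adjusted p = 7.44e-11). Epha10, whose kinase domain is inactive, had 15.9, 18.5 and 21.1 CPM in laminae I–II and 27.5, 31.6 and 42.7 CPM in the deep layer (log2 difference -0.81, SE 0.08, edgeR adjusted p = 4.1e-09). Epha7, Epha3 and Epha5 were 1.75-fold, 1.57-fold and 1.53-fold higher in laminae I–II, each without overlap of the layers.

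No EphB receptor was higher in laminae III–VI. Ephb6, which also lacks kinase activity, was 2.00-fold higher in laminae I–II, and Ephb2 and Ephb1, both known for their contact with NMDA receptors at synapses, were 1.46-fold and 1.38-fold higher. Ephb3 and Ephb4 did not pass (log2 differences 0.05 and -0.21, SE 0.14 each).

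All 3 B-type ephrins were higher in laminae I–II. Efnb3, the ligand that marks the midline of the mouse spinal cord and a partner of Epha4, had 28.1, 38.4 and 46.7 CPM (lowest, median, highest) in laminae I–II and 6.90, 7.77 and 10.102 CPM in laminae III–VI. The difference was 4.64-fold, without overlap (log2 2.21, SE 0.09, edgeR adjusted p = 3.85e-17). Efnb1 had 4.65, 5.30 and 7.15 CPM against 1.71, 2.17 and 2.98 CPM (log2 difference 1.33, SE 0.19, edgeR adjusted p = 1.66e-06), from 10 to 50 counts per library. Efnb2 was 1.24-fold higher, with overlapping libraries, and its call ended with DESeq2 (adjusted p = 0.0671) and in the Saline rats alone (edgeR adjusted p = 0.0755). Among the 4 tested A-type ephrins Efna5 was 1.61-fold higher in laminae I–II and Efna3 was higher in laminae III–VI, while Efna1 and Efna2 did not pass. Efna3 had 7.08, 7.61 and 9.83 CPM in laminae I–II and 8.62, 10.11 and 13.2 CPM in the deep layer (log2 difference -0.43, SE 0.13, edgeR adjusted p = 0.00609). Its layers overlapped, and the call ended with library totals, with DESeq2 and in the Saline rats alone.

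Genes that work with these families were found on both sides. Over all genes 31.3% were higher in laminae I–II and 31.2% in the deep layer, against which the counts of each list stand. Of 29 tested partners of semaphorins and plexins (31 listed) 10 were higher in laminae I–II, 12 had higher levels in the deep layer and 7 did not pass (34.5% and 41.4% in the 2 directions), with a median log2 difference of -0.03. Those with the smallest p toward laminae I–II were Chl1 (log2 difference 1.06), a cell adhesion molecule of semaphorin receptor complexes, and the collapsin response mediators Crmp1 (0.73) and Dpysl4 (1.10). Toward laminae III–VI they were Arhgef11 (-0.61), which binds B-type plexins, Dpysl2 (-0.31) and the kinase Cdk5 (-0.55). Of 27 tested Eph and ephrin partners (31 listed, 28 measured) 12 were higher in laminae I–II, 8 had higher levels in the deep layer and 7 did not pass (44.4% and 29.6%, median 0.07). Here the exchange factors Kalrn (0.89) and Ngef (1.14) and the PDZ protein Pdzrn3 (0.77) led toward laminae I–II, and Sdcbp (-0.66), Vav3 (-1.05) and Itsn1 (-0.39) toward laminae III–VI. The other guidance systems, netrins, slits and RGM proteins with their receptors, had 12 higher in laminae I–II, 9 higher in the deep layer and 3 not past the test of 24 (50.0% and 37.5%; 26 listed, 25 measured, median 0.07). Slit1 (1.45), Dscaml1 (0.91) and Unc5c (0.55) were higher in laminae I–II, whereas Robo1 (-1.15), a slit receptor, Unc5a (-1.47), a netrin receptor, and Slit2 (-0.88) were higher in laminae III–VI. None of the genes in the 3 lists passed the edgeR test of CNO in either layer. At an unadjusted p under 0.05 there were 1, 2 and 4 genes of these lists in laminae I–II (3.45%, 7.41% and 16.7%, against 7.05% of all genes) and 7, 3 and 5 in laminae III–VI (24.1%, 11.1% and 21.7%, against 9.24%).

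CNO was then compared with Saline within each layer, which asks whether gene expression in the dorsal horn of these transgenic rats differs with CNO. Activation of OT neurons and other effects of CNO cannot be told apart here. In laminae I–II 1 of 51 guidance genes, Sema3g, passed the edgeR test, a share of 1.96% against 0.142% of 13344 genes (0.03% higher and 0.112% lower with CNO). Sema3g (chromosome 16, 7303578 to 7315390 in the deposited Rnor6 gene table), a secreted semaphorin known from blood vessels in mouse, had 15.2, 14.5 and 13.8 CPM in the Saline libraries and 22.1, 23.7 and 22.3 CPM in the CNO libraries. The groups were well apart, and the fold change was 1.55 (log2 0.64, SE 0.12, edgeR adjusted p = 0.0442). In laminae III–VI the same gene had 15.5, 9.93 and 14.4 CPM with Saline and 14.9, 14.0 and 16.6 CPM with CNO, which overlap (log2 fold change 0.17, SE 0.16, edgeR adjusted p = 0.781), and the difference between the layers did not pass (0.45, SE 0.19, edgeR adjusted p = 0.429). The call lay close to the threshold. The adjusted p of Sema3g was 0.157 with DESeq2, 0.074 with limma-voom, 0.0636 when all 12 libraries were fitted together and 0.0664 to 0.402 when any 1 of the 6 libraries was left out, while the log2 fold change stayed between 0.60 and 0.67. Of the 10 tested endothelial and mural markers 0 passed the edgeR test in laminae I–II (1 at an unadjusted p under 0.05), with a median log2 fold change of -0.03, and the summed level was 376 to 432 CPM with Saline and 344 to 426 CPM with CNO, with Cldn5 at 0 counts. Only 0.142% of all genes passed in this layer, and the part of vessel cells in the value of Sema3g was not tested.

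**Figure D4:**
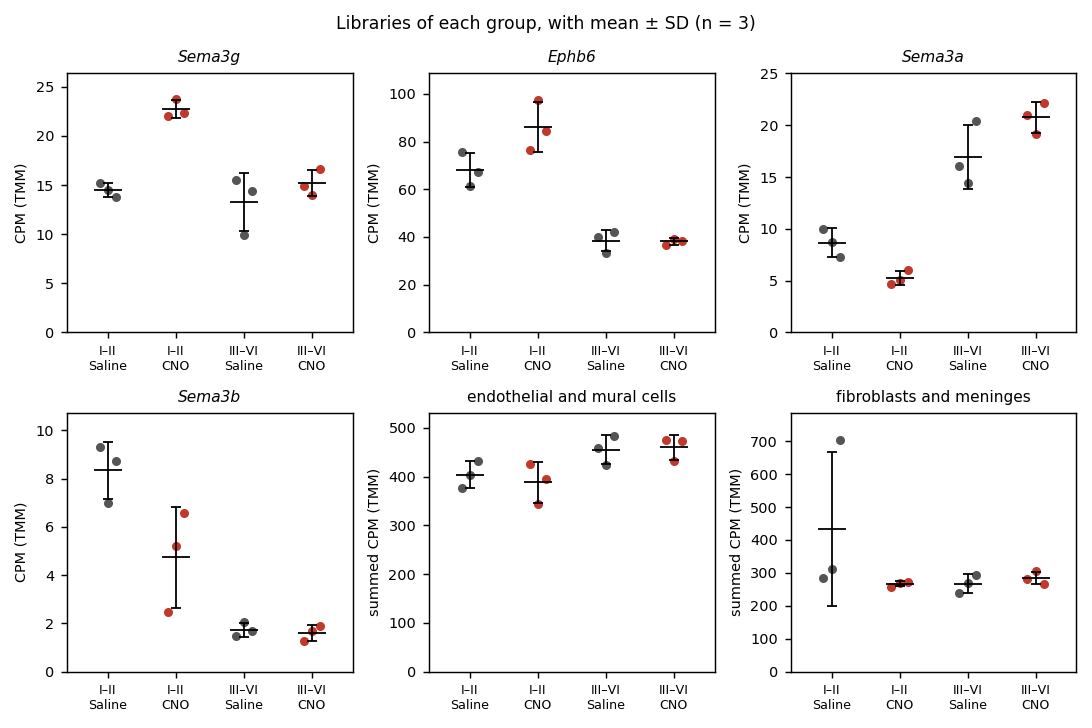
CPM (TMM-scaled, vertical axes starting at 0) of Sema3g, Ephb6, Sema3a and Sema3b and summed CPM of the endothelial and fibroblast marker lists in the 4 groups of 3 libraries (points, with mean ± SD). Sema3g lies at 13.8 to 15.2 CPM in I–II Saline and 22.1 to 23.7 CPM in I–II CNO, while 1 I–II Saline library has a fibroblast sum of 704 CPM against 258 to 313 for the other 5 libraries of laminae I–II.

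Beyond Sema3g no guidance gene passed the threshold in laminae I–II. At an unadjusted p under 0.05 there were 13 of 51 (25.5%, against 7.05% of all genes), 8 of them with a higher and 5 with a lower value with CNO. In 17 genes (33.3%, against 11.8% of all genes) the 3 Saline and 3 CNO libraries did not overlap. The 13 with higher values (25.5%, against 6.72%) included the receptors Plxna2, Plxna3, Plxna4, Plxnb2, Epha6, Epha8, Ephb1, Ephb2 and Ephb6 and the ligands Sema3f, Sema3g, Sema5a and Efnb3. The 4 with lower values (7.84%, against 5.11%) were Sema3a, Sema3b, Sema3d and Epha5. Ephb6 had 75.4, 61.3 and 67.3 CPM with Saline and 76.6, 97.4 and 84.4 CPM with CNO, so that its lowest CNO library was only just above its highest Saline library (log2 fold change 0.33, SE 0.09, edgeR adjusted p = 0.358). The summed level of the 53 genes was 2876 to 3114 CPM with Saline and 3126 to 3332 CPM with CNO in laminae I–II. Total counts per library were also higher in each CNO than in each Saline library of this layer (6095833 to 6576869 against 5245952 to 5694619), and the part of this was not tested. Over the 51 genes the median log2 fold change was 0.04, against -0.00 over all genes.

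Of the 4 genes with lower values 3 are secreted semaphorins. Sema3a had 10.01, 8.71 and 7.24 CPM with Saline and 4.65, 5.05 and 6.01 CPM with CNO in laminae I–II, without overlap (log2 fold change -0.73, SE 0.21, edgeR adjusted p = 0.370). Sema3b had 9.30, 7.004 and 8.72 CPM with Saline and 2.47, 5.21 and 6.58 CPM with CNO (log2 fold change -0.82, SE 0.27, edgeR adjusted p = 0.476). Neither passed the threshold, nor did Sema3d (log2 fold change -0.33, SE 0.11, edgeR adjusted p = 0.499). Genes of the meninges and of Schwann cells were lower with CNO in the same libraries, and their part in these values was not tested. Of 13 tested fibroblast and meningeal markers 3 were lower and 0 higher (median log2 fold change -1.08), with sums of 284, 313 and 704 CPM with Saline and 258, 268 and 273 CPM with CNO. Of 7 tested Schwann cell markers 5 were lower and 0 higher (median -1.73), with sums of 669 to 1016 CPM with Saline and 474 to 507 CPM with CNO. When 1 library was left out, the log2 fold change of Sema3a was -0.84 to -0.62 and that of Sema3b was -0.50 without I–II CNO 1 and -1.13 without I–II CNO 3, the ends of its range.

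In laminae III–VI none of the 51 genes passed the edgeR test, against 0.137% of 13117 genes (0.0839% higher and 0.0534% lower with CNO). At an unadjusted p under 0.05 there were 6 (11.8%, against 9.24%), and DESeq2 and limma-voom called 0. In 8 genes (15.7%, against 14.5%) the groups did not overlap, 5 with higher values with CNO (Plxna1, Plxnd1, Sema4f, Sema6b, Efnb1; 7.72% of all genes) and 3 with lower (Epha4, Epha7, Ephb3; 6.78% of all genes). The smallest p was that of Sema6b, a ligand of A-type plexins, with 56.0, 59.2 and 59.2 CPM with Saline and 66.5, 73.8 and 66.3 CPM with CNO. The groups were apart by a log2 fold change of 0.24 (SE 0.08, edgeR adjusted p = 0.367). Epha4 had 141, 135 and 136 CPM with Saline and 126, 110.2 and 126 CPM with CNO (log2 fold change -0.19, SE 0.07, edgeR adjusted p = 0.397). In laminae I–II it had 89.9, 99.8 and 104 CPM with Saline and 92.7, 74.1 and 81.8 CPM with CNO, which overlap (log2 fold change -0.25, SE 0.09, edgeR adjusted p = 0.499). Epha7 had 19.8, 18.8 and 15.6 CPM with Saline and 15.5, 13.5 and 12.4 CPM with CNO in laminae III–VI (log2 fold change -0.39, SE 0.14, edgeR adjusted p = 0.398). The median over the 51 genes was 0.04, against -0.01 over all genes. In laminae III–VI the 12 deep layer markers summed to 11208 to 13562 CPM with Saline, against 15428 to 18362 CPM with CNO. Most of this sum came from Nefm (Saline mean 5524 CPM, CNO mean 8001 CPM) and Nefh (Saline mean 3345 CPM, CNO mean 4733 CPM). Only these 2 of the 12 passed the test, and the median log2 fold change of the 12 was 0.19. The part of these markers in the values of the guidance genes was not tested.

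**Figure D5:**
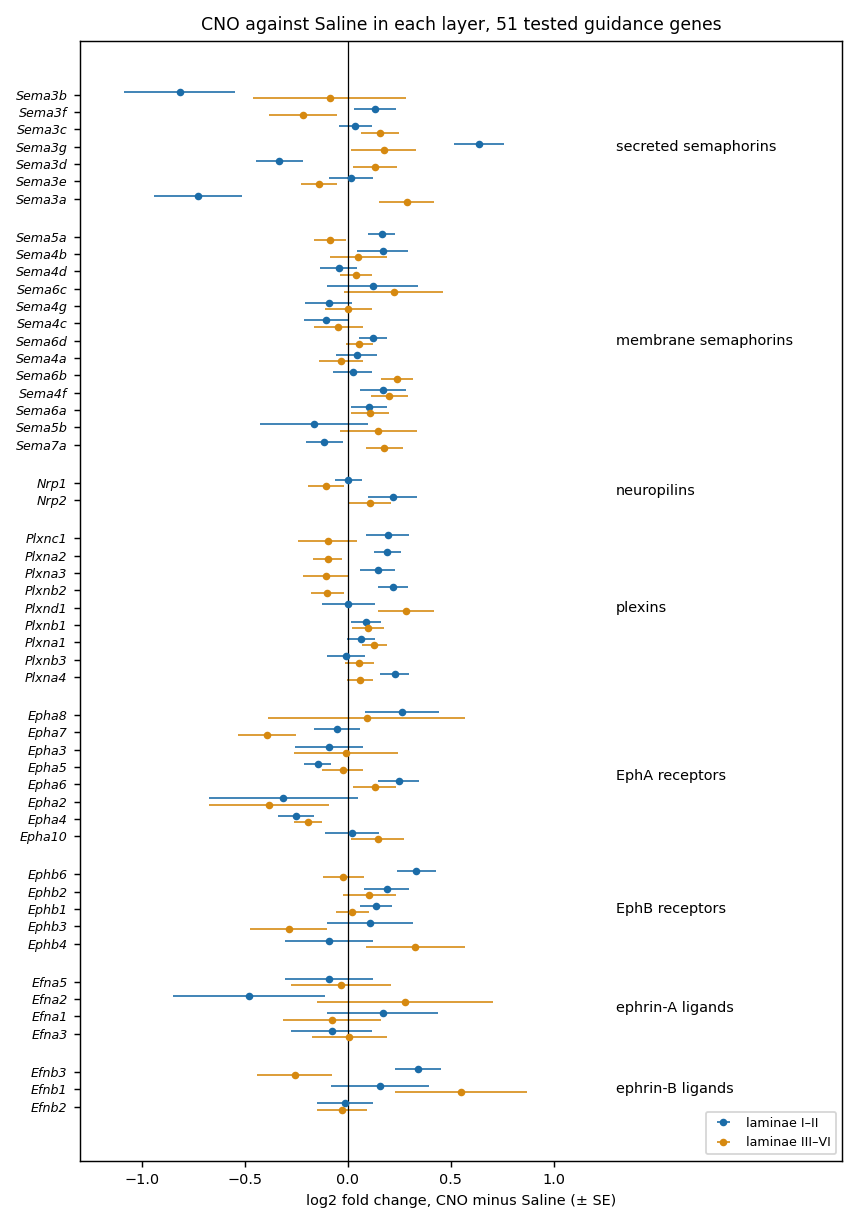
Log2 fold change of CNO against Saline (horizontal axis, edgeR estimate ± SE, 3 against 3 libraries) for the 51 tested guidance genes, grouped by role, with laminae I–II in blue and laminae III–VI in orange. Sema3g in laminae I–II, at 0.64, is the only point past the adjusted threshold, and Sema3a and Sema3b in laminae I–II lie at -0.73 and -0.82 with wider errors.

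Whether the CNO effect differed by layer was tested as an interaction over all 12 libraries. No guidance gene passed the edgeR test, against 0.429% of 13745 genes, while 12 (23.5%, against 9.27%) had an unadjusted p under 0.05, 9 with a more positive and 3 with a more negative value in laminae I–II. Markers of layers and cell types differed in the same test, and their part in these values was not tested. Of 15 tested superficial markers 1 passed, Sst (0.78, edgeR adjusted p = 0.000133), and 9 values were positive and 6 negative. Of 10 astrocyte markers 1 passed, Slc1a3 (0.39, edgeR adjusted p = 0.0107), and all 10 values were positive. Of 12 deep markers 2 passed, Nefm (-0.62) and Nefh (-0.48), and 9 values were negative and 3 positive. Of 10 general neuronal markers 2 passed, Stmn2 (-0.38) and Tubb3 (-0.33), and 8 values were negative and 2 positive. More negative in laminae I–II were also 3 of 7 Schwann cell markers (median -1.69) and 4 of 13 fibroblast and meningeal markers (median -1.02). DESeq2 called 0, giving Sema3a no adjusted p, and limma-voom called 1 (Plxna2). Plxna2 and Sema3a lay just beyond the threshold. Plxna2 had 338, 294 and 314 CPM with Saline and 346, 391 and 351 CPM with CNO in laminae I–II, and 143, 127 and 126 CPM with Saline and 124, 129.9 and 118 CPM with CNO in laminae III–VI. Its value was thus higher with CNO in the superficial layer without overlap and not in the deep layer (difference 0.29 on the log2 scale, SE 0.07, edgeR adjusted p = 0.0514). For Sema3a, with 16.1, 14.4 and 20.4 CPM with Saline and 21.0, 19.2 and 22.1 CPM with CNO in laminae III–VI, the fold changes had opposite signs in the layers (difference -1.01, SE 0.24, edgeR adjusted p = 0.0540). Plxnb2 had 110.5, 98.9 and 103 CPM with Saline and 114, 130.2 and 123 CPM with CNO in laminae I–II. In laminae III–VI it had 67.9, 60.8 and 58.3 CPM with Saline and 57.6, 61.0 and 56.8 CPM with CNO (difference 0.32, SE 0.09, edgeR adjusted p = 0.108). Over the alternatives (13 for Plxna2, the same but DESeq2 for Sema3a) the adjusted p of the interaction ranged from 0.0158 to 0.776 for Plxna2 and from 0.00234 to 0.326 for Sema3a, which passed in 4 and 3 of them.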

How the data were processed

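RNA of laser-microdissected dorsal horn was sequenced in 12 libraries (4 groups of 3). Reads were mapped by the authors to Rnor6 with CLC Genomics Workbench 10.1.1, and they deposited total read counts for 32623 genes, which are not normalized. How reads of 36 bases that fit several paralogs were counted, and whether strand was used, is not given in the sources used here. The deposited gene table gave positions, and 24 deposited columns of normalized or transformed values were not used, nor were the columns of the authors' own fold changes and p-values.

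Counts were analysed with edgeR 4.0.16 (filterByExpr with a minimum count of 10 and a minimum total of 15, TMM factors, quasi-likelihood test, Benjamini-Hochberg adjustment over all genes tested) in R 4.3.3. CNO was compared with Saline within each layer on 6 libraries. The layers and the interaction were fitted on 12 libraries with the rat as a block. The study took both layers from 3 rats per treatment, so each number within a treatment was treated as 1 rat, which the labels do not state. Libraries that share a treatment and number moved together around the means of their groups (r = 0.132 to 0.197 in Saline, 0.145 to 0.174 in CNO, across genes). Saline and CNO libraries of the same number, which come from different rats, had r = 0.0250 to 0.0440 in laminae I–II and 0.0734 to 0.140 in laminae III–VI. The r thus cannot identify a rat. Replicates differed by more than sampling noise (2.50 to 4.35 times the degrees of freedom in a chi-square test). Each fit was also run on simulated counts in which 200 genes were changed, and the outcome is not given here. Those counts had no rat effects and no layer difference in the other genes, so they cannot check the block for the rat.

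The alternatives were RLE factors, library totals only, DESeq2 1.42.0, limma-voom (limma 3.58.1), no low-count filter, 1 CPM in 3 libraries, another blocking, 1 fit of all 12 libraries, Saline or CNO rats alone, and leaving out each library or rat. The members and the 13 gene lists (202 entries, 193 measured) were chosen with earlier results of these data known. Levels (as lowest, median and highest library for the layers, and by library for CNO) are given for the 8 largest layer differences in each direction and the 3 smallest p of each CNO comparison and the interaction. Of the partner lists the 3 smallest p per direction were named. The rule also asked for the most abundant member per length of each role, which was not applied because no transcript lengths were used. Sema3b, Sema3d and the ratios were chosen after their values were seen.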

Additional observations from a re-analysis of the deposited data

Results flagged for a closer look

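Slit2, a secreted ligand of Robo receptors from the list of other guidance genes, stood out because its CNO effect differed between the layers by a test of that difference (log2 difference of the effects -0.51, SE 0.09, edgeR adjusted p = 0.00661). Its level in laminae I–II was 87.1 ± 1.93 CPM with Saline against 64.8 ± 9.41 CPM with CNO (SD, n = 3 libraries each). In laminae III–VI the Saline libraries had 134 ± 9.66 CPM and the CNO libraries 142 ± 6.20 CPM. The CNO effect did not pass the edgeR test in either layer on its own (adjusted p = 0.0742 and 0.781). Slit2 was the 1 gene of 24 in its list that passed the test of the difference, with 0 of 29 and 0 of 27 in the other 2 lists, against 0.429% of all genes. The alternatives were not examined for Slit2. Without the block for the rat only 2 of all genes passed the test of the difference, in place of 59. In the same test 4 of 13 fibroblast and meningeal markers (median -1.02) and 3 of 7 Schwann cell markers (median -1.69) were more negative in laminae I–II, and their part in the value of Slit2 was not tested.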

How the results depend on the processing

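The 30 genes higher in laminae I–II were 26 to 32 under the 15 alternatives, and the 13 higher in laminae III–VI were 9 to 14, except for 6 with library totals. In the interaction 1 gene passed with RLE factors (Sema3a), 1 with library totals (Plxna2), 1 with limma-voom (Plxna2), 1 with 1 CPM in 3 libraries (Plxna2), 2 without a low-count filter (both), and 0 to 1 when a rat was left out (Sema3a without Saline replicate 3). For CNO in laminae I–II 0 passed with DESeq2, 0 with limma-voom, 0 in the fit of all 12 libraries, 2 without a low-count filter (Sema3g and Ephb6) and 0 when any library was left out. In laminae III–VI 0 passed under each alternative.

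Several layer differences close to 0 changed sign. They were Efna1 (0.11 with library totals, 0.062 in CNO rats only, -0.178 to 0.0401 when a rat was left out), Epha6 (-8.9e-06 in Saline rats only, -0.0173 to 0.0996 when a rat was left out), Ephb3 (-0.15 in Saline rats only, -0.0544 to 0.118 when a rat was left out), Plxna1 (0.023 with library totals), Sema3d (0.020 in Saline rats only), Sema4f (0.045 with library totals) and Sema6b (0.15 with library totals, 0.078 in Saline rats only, -0.0715 to 0.0192 when a rat was left out). The CNO value of Sema3b in laminae III–VI was -0.233 to 0.0602 when a library was left out. The cause was not tested.

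Libraries of Saline and CNO share only a number (r = 0.0250 to 0.0440 in laminae I–II, 0.0734 to 0.140 in laminae III–VI). With the replicate block on that number 78 of all genes passed in laminae I–II in place of 19 and 194 in laminae III–VI in place of 18, with 1 and 0 guidance genes as before. With no replicate block for the rat the layer counts stayed at 30 and 13 and the interaction had 2 genes in place of 59. Over all genes CNO in laminae I–II gave 9 with DESeq2, 131 without a low-count filter and 3 to 29 without 1 library, and in laminae III–VI 112 without the filter, 0 in the fit of all 12 and 0 to 93 without 1 library. The interaction gave 23 with DESeq2, 164 without the filter and 14 to 71 without 1 rat. Counts per library were low for Sema3b (8 to 53) and Epha8 (5 to 72).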
